A study of Homo sapiens with 8 samples.

Results

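Collagen VI is a network-forming collagen built from the products of COL6A1, COL6A2 and COL6A3, which encode the alpha 1, alpha 2 and alpha 3 chains. These 3 genes, of 54174 symbols in the deposited table, are described here in every library. They were chosen by name after it had been seen that their values were lower in the knockout libraries, so the difference between the groups selected them and is given as a description without a test. The study measured RNA of 143B cells, an established human osteosarcoma line that was derived from HOS cells by transformation with a Kirsten ras oncogene, a feature shared by both groups. The control group held 4 libraries of cells given a vector plasmid, and the other group 4 libraries of cells given a plasmid labelled for NELL1 knockout, each by transient transfection for 48 h. Whether transfected cells were selected or grown from a single clone is not given in the sources used here. The product of NELL1 is a secreted matrix glycoprotein, and the series title asks how it acts on the matrisome, that is, the genes for matrix and matrix-associated proteins.

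One chain of each kind folds into a short triple helix inside the endoplasmic reticulum. The trimers pair and pair again before secretion, and outside the cell they join end to end into beaded microfilaments around cells and next to basement membranes. Large von Willebrand factor type A domains flank the helix and bind other matrix molecules, and the alpha 3 chain carries most of them as well as a C-terminal piece, endotrophin, that is released by proteases. Variants in any of these genes can cause Bethlem myopathy or Ullrich congenital muscular dystrophy, and in mesenchymal cells the microfilaments are a usual part of the pericellular matrix.

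COL6A1 lies on chromosome 21 from 45981770 to 46005048 and COL6A2 on the same chromosome from 46098112 to 46132848 (GRCh38.p14 coordinates from RefSeq, the build named as GRCh38 in the submitters' processing notes). A gap of 93.1 kb separates them and RefSeq places 0 protein-coding genes in it. COL6A3 lies on chromosome 2 from 237324018 to 237414164. The 250 bases before the RefSeq start of COL6A2 and of COL6A3 are shown because the values of these genes, which lie on separate chromosomes, were lower in the same libraries. Capitals mark matches, on either strand, to the GC box GGGCGG and to the TATA box TATAAA; the first GC box in the COL6A2 window is read on the opposite strand.
COL6A2, chr21:46097862-46098111, plus strand: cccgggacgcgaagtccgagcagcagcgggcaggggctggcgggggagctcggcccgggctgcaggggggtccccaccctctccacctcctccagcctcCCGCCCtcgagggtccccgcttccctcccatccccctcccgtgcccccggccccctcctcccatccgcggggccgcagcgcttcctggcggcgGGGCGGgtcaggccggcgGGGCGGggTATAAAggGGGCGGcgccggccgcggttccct
COL6A3, chr2:237414165-237414414, minus strand: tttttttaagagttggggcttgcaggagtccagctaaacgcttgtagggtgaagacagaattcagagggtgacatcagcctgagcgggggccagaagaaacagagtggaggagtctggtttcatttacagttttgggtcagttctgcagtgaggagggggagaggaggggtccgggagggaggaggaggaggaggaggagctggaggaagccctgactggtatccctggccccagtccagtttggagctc

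The COL6A2 window held 4 GC boxes and 1 TATA box, which starts 32 bases before the gene's start. A GC box was present in 42.6% and a TATA box in 10.7% of the 35116 RefSeq promoter windows of the same length. The COL6A3 window held 0 matches to either motif. Neither window matched the CCAAT box CCAAT (in 32% of all windows), the AP-1 motif TGANTCA (6.57%) or the E-box CANNTG (61.8%), each searched on both strands. The 2 windows also differed in base composition: 79.6% of the COL6A2 bases and 56% of the COL6A3 bases were G or C, against a median of 58% over all windows.

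The deposited value is a signal on a logarithmic scale, whose base is not stated and is taken as 2 from the range of the values, and whose unit before the logarithm is not stated. All libraries had been brought to one distribution before deposit, and no read totals are given, so the depth of each library is unknown and no counting error can be attached to a value. A library held values for 14911 to 15171 genes. NELL1 itself ranked low everywhere, at percentiles 2.30 to 9.52. Control libraries averaged -5.87 ± 1.29 (SD, n = 4) and knockout libraries, of which 1 was blank, -5.88 ± 1.07 (SD, n = 3; exact two-sided permutation test, p = 1; smallest possible p = 0.0286), so its transcript did not check the labels. Knockout libraries 1 and 2 resembled each other, as did 3 and 4: the SD over 9016 genes of the difference between 2 libraries was 0.12 and 0.13 within these pairs and 0.46 to 0.50 between them, while a knockout and a control library differed with an SD of 0.36 to 0.45. Control library 3 differed from the other controls with an SD of 0.19 to 0.29, and those differed from each other with one of 0.10 to 0.15. Results that rest on them are given with each pair averaged to 1 library or for replicates 1-2 and 3-4 apart. The labels do not say that replicates came from separate cultures, so p-values cover the spread between these libraries, which may be technical. Of the 7 mesenchymal markers looked at, 5 were above 0 in all 8 libraries. VIM stood at 10.2 to 10.9, SPARC at 5.23 to 6.15, CDH2 at 4.31 to 4.57, TWIST1 at 1.93 to 2.35 and PRRX1 at 1.66 to 2.16. COL1A1 stood at only -1.45 to 0.90, and COL1A2 had a value in 4 libraries, at -7.55 to -4.82. Of the 6 osteoblast markers, SPP1 stood at 3.08 to 4.70, RUNX2 at 0.05 to 0.43 and ALPL at -1.75 to -0.34, BGLAP had a value in 3 libraries, and SP7 and IBSP were blank in every library. Of the 5 epithelial markers, EPCAM stood at 1.83 to 2.76 and CLDN4 at -4.47 to -2.44, and ESRP1, KRT5 and CDH1 had values in 7, 3 and 2 libraries, all below -3. The 4 endothelial markers did not exceed -0.82 in any library. The haematopoietic markers PTPRC and CD3E were blank in every library, and CD14 had a value in 6, at -4.90 to -2.67. The part of such cells in the results was not tested.

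COL6A1, which encodes a chain of the central helix, had log2 values of 5.25, 5.18, 5.27 and 5.25 in control libraries 1 to 4 and of 3.68, 3.81, 4.10 and 4.18 in knockout libraries 1 to 4. The control values were nearly level, and the groups stood 1.00 apart at their nearest values, with knockout libraries 1 and 2 lowest. The means were 5.24 ± 0.04 and 3.94 ± 0.24 (SD, n = 4 each), a difference of -1.30 ± 0.11 (SE from limma), or 40.8% of the control level if the logarithm is base 2. Among all genes with a value, COL6A1 moved from percentiles 92.5 to 93.1 in the controls to percentiles 78.7 to 84.7 in the knockouts.

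COL6A2, the neighbouring gene, encodes the second chain of the helix. Its log2 values were 5.80, 5.82, 5.81 and 5.86 in the controls and 4.38, 4.48, 4.68 and 4.69 in the knockouts. The groups stood 1.11 apart at their nearest values, and knockout libraries 1 and 2 were again the lowest. The mean went from 5.82 ± 0.03 to 4.56 ± 0.15 (SD, n = 4 each), a difference of -1.27 ± 0.08 (SE from limma), or 41.6% of the control level.

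COL6A3 encodes the longest chain, which cells need before trimers can form. Its log2 values were 6.11, 6.05, 5.66 and 6.003 in the controls and 4.53, 4.85, 5.07 and 5.26 in the knockouts. Control library 3 was low among the controls, yet the groups did not overlap and stood 0.40 apart. The means were 5.96 ± 0.20 and 4.93 ± 0.32 (SD, n = 4 each), a difference of -1.03 ± 0.16 (SE from limma), or 48.9% of the control level.

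**Figure D1:**
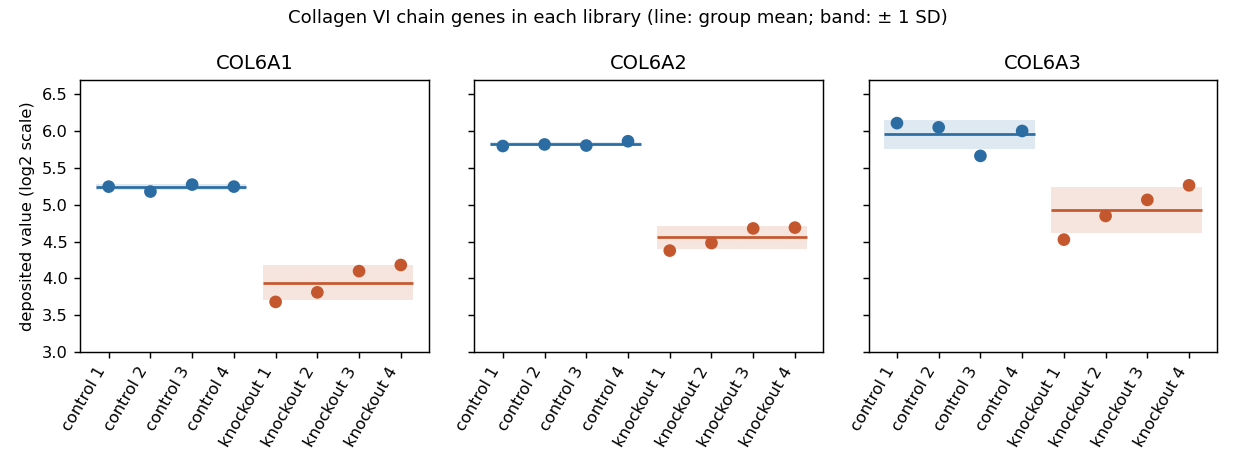
Deposited log2 value of each collagen VI chain gene (y axis) in the 4 control and 4 knockout libraries (x axis); points are libraries, lines are group means and bands are 1 SD either side. No control value overlapped a knockout value, COL6A1 and COL6A2 were almost level across the controls, and control library 3 was low for COL6A3 at 5.66.

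All 4 knockout values lay below all 4 control values for 3 of 3 chains and for 10.4% of the 9016 tested genes (measured in every library, mean no lower than 1). All 3 chains were also called lower by the limma fit over those genes (Benjamini-Hochberg adjusted p-value under 0.05), against 6.1% of all tested genes. Because this contrast chose the chains, neither count is evidence about them. A difference of -1 or lower was reached by 38 of the 9016 genes (0.421%), and COL6A1, COL6A2 and COL6A3 ranked 17, 19 and 35 from the largest fall. In bulk RNA, fewer cells that express a gene and less of its RNA per cell cannot be told apart.

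The spread between libraries of the same group differed among the chains. Over the controls the SD of COL6A2 was 0.03 and that of COL6A1 0.04, against a median of 0.10 over all tested genes, and 4.34% and 10.3% of tested genes had a smaller one. COL6A3 had a control SD of 0.20, and 87.9% of tested genes had a smaller one. Without control library 3 the difference of COL6A3 was -1.13 in place of -1.03, and those of COL6A1 and COL6A2 were -1.28 and -1.27.

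The knockout libraries were less even than the controls for every chain, and also over all tested genes. There the median SD was 0.17 in knockout and 0.10 in control libraries. Of tested genes, 67.9%, 46.4% and 80.0% had a smaller knockout SD than COL6A1, COL6A2 and COL6A3. Knockout libraries 1 and 2 averaged 3.74 for COL6A1, 4.43 for COL6A2 and 4.69 for COL6A3, and libraries 3 and 4 averaged 4.14, 4.68 and 5.17. Both of the first libraries lay below both of the latter in each chain, as they did for 41% of all tested genes. The gap between these pairs was 0.40, 0.26 and 0.48 for COL6A1, COL6A2 and COL6A3, against a median absolute gap of 0.26 over all tested genes. Since the groups did not overlap for any chain, every pairing of libraries had to put the knockout value lower. Same-numbered libraries differed by -1.57 to -1.07 for COL6A1, -1.42 to -1.13 for COL6A2 and -1.58 to -0.60 for COL6A3.

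Taken within replicates 1 and 2, the knockout libraries held 36.1% of the control level of COL6A1, 38.4% of COL6A2 and 38.0% of COL6A3, so the chains were reduced by nearly the same factor there. Within replicates 3 and 4 the corresponding shares were 46.0%, 45.0% and 62.9%. COL6A3 thus stood apart from its partners in the latter set, where its log2 difference was -0.67 against -1.12 and -1.15. Control library 3 had the lowest control value of this gene: same-numbered libraries differed by -0.60 in replicate 3 and by -0.74 in replicate 4. Whether the sets differ was not tested.

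The ratio of 2 chains in a library is the difference of their log2 values. Its absolute size depends on the unstated unit and on gene length, so only its change between libraries is read here. COL6A1 minus COL6A2 was -0.55, -0.64, -0.53 and -0.62 in the controls and -0.70, -0.67, -0.58 and -0.51 in the knockouts. It stayed within a range of 0.19 over 8 libraries, while COL6A1 and COL6A2 themselves ranged over 1.60 and 1.49. The groups overlapped, and the means were -0.59 ± 0.05 and -0.61 ± 0.09 (SD, n = 4 each), a difference of -0.03 ± 0.05 (SE). By the SD of that difference over the 8 libraries, 0.07, COL6A2 was the nearest of the 9015 other tested genes to COL6A1, and COL6A1 the nearest to COL6A2. Both genes were chosen for the fall that makes up most of their ranges, so neither the narrow ratio nor this rank is evidence of a link.

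COL6A1 and COL6A2 were less near to each other within the groups. When each group is centred on its own mean, which takes out the knockout difference, COL6A2 ranked 304 among the genes nearest to COL6A1 and COL6A1 ranked 610 among those nearest to COL6A2. These ranks describe 8 libraries that come in close pairs and carry no test. A correlation between the chains is not given, since the libraries form separate groups of 4.

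COL6A1 minus COL6A3 was -0.86, -0.87, -0.39 and -0.76 in the controls and -0.85, -1.04, -0.97 and -1.08 in the knockouts. COL6A2 minus COL6A3 was -0.31, -0.23, 0.14 and -0.14 in the controls and -0.15, -0.37, -0.39 and -0.57 in the knockouts. Both ratios overlapped between the groups and were highest in control library 3. Their mean differences were -0.26 ± 0.12 and -0.23 ± 0.13 (SE), and without control library 3 they shrank to -0.15 and -0.14. COL6A3 ranked 9 among the genes nearest to COL6A1 and 12 among those nearest to COL6A2 over the 8 libraries. Once each group is centred on its own mean, these ranks were 3219 and 4630. In the other direction, COL6A1 and COL6A2 ranked 28 and 26 among the genes nearest to COL6A3, and 709 and 915 after centring. The nearness over the 8 libraries thus rests largely on the difference that chose the chains.

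**Figure D2:**
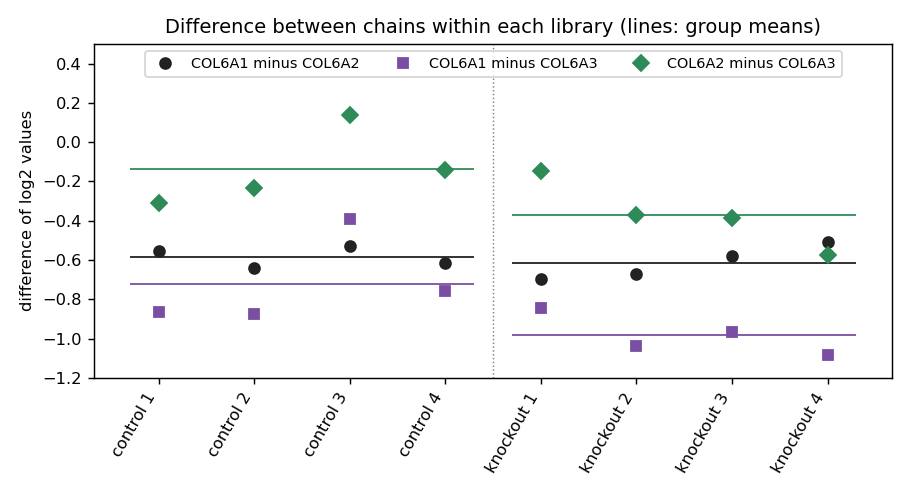
Difference of log2 values between chains (y axis) within each control and knockout library (x axis); points are libraries and lines are group means. COL6A1 minus COL6A2 kept between -0.70 and -0.51 in all 8 libraries, while both differences from COL6A3 were highest in control library 3.

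Other genes of the family can supply a chain in place of alpha 3. COL6A6 and the pseudogenes COL6A4P1 and COL6A4P2 were blank in every library. COL6A5 had a value in 4 of 8 libraries, at -8.63 in control library 3 and at -8.55, -7.12 and -8.52 in knockout libraries 1, 3 and 4, all far below the level needed for a test. COL6A1, COL6A2 and COL6A3 were therefore the chain genes with values throughout.

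Genes that act with collagen VI were taken from lists written from general knowledge and tested in the limma fit, in which 13.1% of the 9016 genes were called (7.02% higher and 6.1% lower). Of 12 receptor genes tested, 5 fell, 0 rose and 7 did not pass, and their median difference was -0.39 against 0.01 over all tested genes. ANTXR2, a receptor through which cells take up collagen VI, averaged 3.86 ± 0.08 in control and 3.11 ± 0.09 in knockout libraries (SD, n = 4 each; difference -0.75 ± 0.07 SE, limma adjusted p = 0.00133). Replicates 1 and 2 gave a change of -0.72 and replicates 3 and 4 one of -0.78. ITGAV and ITGA1, alpha subunits of matrix-binding integrins, fell by 0.65 and 0.63 (limma adjusted p = 0.0113 and 0.0102). ITGA3, the laminin-binding alpha 3 subunit, fell by 0.43 (limma adjusted p = 0.0316, and 0.0584 with the replicate number as a block). It was not called without control library 1, 2 or 4 or knockout library 2 (limma adjusted p = 0.0960, 0.0888, 0.0909 and 0.0676).

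ITGB1, named here after its values were seen, is the beta subunit shared by several collagen receptors and fell by 0.34 (limma adjusted p = 0.0171). It was not called without control library 1, 2 or 4 (limma adjusted p = 0.0573, 0.0597 and 0.0686). ANTXR1, the related anthrax toxin receptor, had a difference of 0.16 and CSPG4, the NG2 proteoglycan that binds collagen VI at the cell surface, one of -0.03, and neither passed. DDR1, a collagen-activated kinase, differed by -1.27 in replicates 1 and 2 and by 0.02 in replicates 3 and 4, and did not pass over all libraries. With each close pair of knockout libraries averaged, ANTXR2 alone of the receptors passed (limma adjusted p = 0.0270), in a fit that called 1.2% of all tested genes.

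Of 25 matrix partners, 8 could be tested. Of these, 2 fell and 0 rose, against 6.1% of all tested genes called lower and 7.02% higher. Their median difference was -0.69, a value between those of COL4A2 (-0.74) and COL4A1 (-0.64), which did not pass. In replicates 3 and 4 the 2 called genes were lower, but the 6 others were higher in the knockouts, by 0.09 to 0.69. HSPG2, which did not pass, differed by -1.97 in replicates 1 and 2 and by 0.09 in replicates 3 and 4. MFAP2, a microfibril-associated glycoprotein, fell from 3.53 ± 0.08 to 2.58 ± 0.12 (SD, n = 4 each; difference -0.95 ± 0.08 SE, limma adjusted p = 0.00111). Like ANTXR2 it changed alike in both sets, by -0.97 and -0.94, and it passed with averaged pairs (limma adjusted p = 0.0235). The fibronectin gene FN1 fell by 1.26 (limma adjusted p = 0.0261, and 0.0774 with averaged pairs). It was not called without control library 1, 2 or 4 or knockout library 2 (limma adjusted p = 0.0781, 0.0773, 0.0790 and 0.0514). BGN, a small proteoglycan that binds collagen VI, had a difference of -0.06. The other small proteoglycans that bind it were scarcely measured: DCN and LUM had a value in 1 library each and FMOD in 0. Without the filter on low values, limma called 6 genes of this list and 8.3% of 13943 genes.

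The alpha 1 and alpha 2 genes of collagen IV are also chromosomal neighbours whose products share a trimer. COL4A1 averaged 4.52 ± 0.07 in control and 3.88 ± 1.26 in knockout libraries, and COL4A2 6.28 ± 0.09 and 5.54 ± 1.19 (SD, n = 4 each). Their differences were -1.68 and -1.69 in replicates 1 and 2 but 0.40 and 0.21 in replicates 3 and 4, and neither passed (limma adjusted p = 0.457 and 0.364). Among collagens that could be tested, the collagen VI genes were lower in both sets, as were COL9A3, COL18A1, COL4A5 and COL27A1. In replicates 3 and 4 those other collagens differed by -0.30, -0.35, -0.09 and -0.08. COL5A2, COL12A1 and COL13A1, like the collagen IV pair, were higher in the knockouts of replicates 3 and 4. Below the level needed for the test, COL7A1, COL9A2, COL5A1, COL15A1 and COL2A1 had every knockout value below every control value. Their differences were -1.42, -0.71, -0.66, -0.77 and -0.89. COL5A3 had every knockout value above every control value, with a difference of 1.47. Over all tested genes 10.4% were lower and 12.5% higher in this way. Whether the collagens differ between the sets was not tested. Of 39 other collagen genes, 9 could be tested and 1 fell, a share of 11.1% called against 13.1% of all tested genes. That gene was COL9A3, a chain of the fibril-associated collagen IX, which fell by 0.76 (limma adjusted p = 0.0329, 0.0689 with the replicate block and 0.114 with averaged pairs). It was not called without control library 1, 2 or 4 or knockout library 1 or 2 (limma adjusted p = 0.0986, 0.103, 0.0944, 0.0555 and 0.0679). The median of the 9 was -0.38.

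Of 23 tested genes of collagen biosynthesis, 1 fell, 2 rose and 20 did not pass, a share of 13.04% called against 13.1% of all genes. SERPINH1, the collagen chaperone HSP47, fell by 0.40 (limma adjusted p = 0.00696). P3H2, a prolyl 3-hydroxylase, rose by 0.93 (limma adjusted p = 0.00912). P3H3, named after its values were seen, rose by 0.35 (limma adjusted p = 0.0453, and 0.0502 with the replicate block), with groups that overlapped. It was not called without control library 1, 2 or 4 (limma adjusted p = 0.130, 0.131 and 0.115) or knockout library 1, 3 or 4 (limma adjusted p = 0.0840, 0.0970 and 0.0867). The prolyl 4-hydroxylase subunits P4HA1 and P4HB, which stabilise the helix, differed by -0.62 and -0.10 and did not pass. P4HA1 stood at 5.05 in control library 3 and at 5.80 to 6.05 in the other controls, against 5.01 to 5.19 in the knockouts. With averaged pairs 0 of the 23 were called by limma, whereas 10 had an unadjusted p-value under 0.05 over all 8 libraries, as did 29.7% of all tested genes.

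Of 11 tested genes of collagen VI processing or matrix breakdown, 4 fell and 0 rose, with a median difference of -0.47. Over all tested genes 6.1% were called lower and 7.02% higher. MMP9, a gelatinase, fell by 2.46 (limma adjusted p = 0.00696). It was the one gene of this list called with averaged pairs (limma adjusted p = 0.0387), a fit that called 1.2% of all tested genes. MMP14, a membrane-bound collagenase that can release endotrophin, fell by 1.20 (limma adjusted p = 0.0180, and 0.0504 and 0.0602 without control library 1 or 4). MMP1, an interstitial collagenase, and CTSB, a lysosomal protease, fell by 0.87 and 0.52 (limma adjusted p = 0.00673 and 0.00969). BMP1, which also cleaves the alpha 3 chain's end, differed by -0.47, and FURIN, a proprotein convertase, by -0.22, and neither passed. FURIN differed by -0.70 in replicates 1 and 2 and by 0.25 in replicates 3 and 4. MMP2, which did not pass either, differed by -0.94 and 1.04 in these sets.

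Of 13 tested transcription factors and TGF-beta pathway genes that have been tied to collagen promoters, limma called 0, with 3 of the 13 at an unadjusted p-value under 0.05, against 29.7% of all tested genes, and their median difference was -0.11. The largest difference was that of TGFB1, at -0.50 (limma adjusted p = 0.0647). SP1, a factor that binds GC boxes, differed by -0.27.

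**Figure D3:**
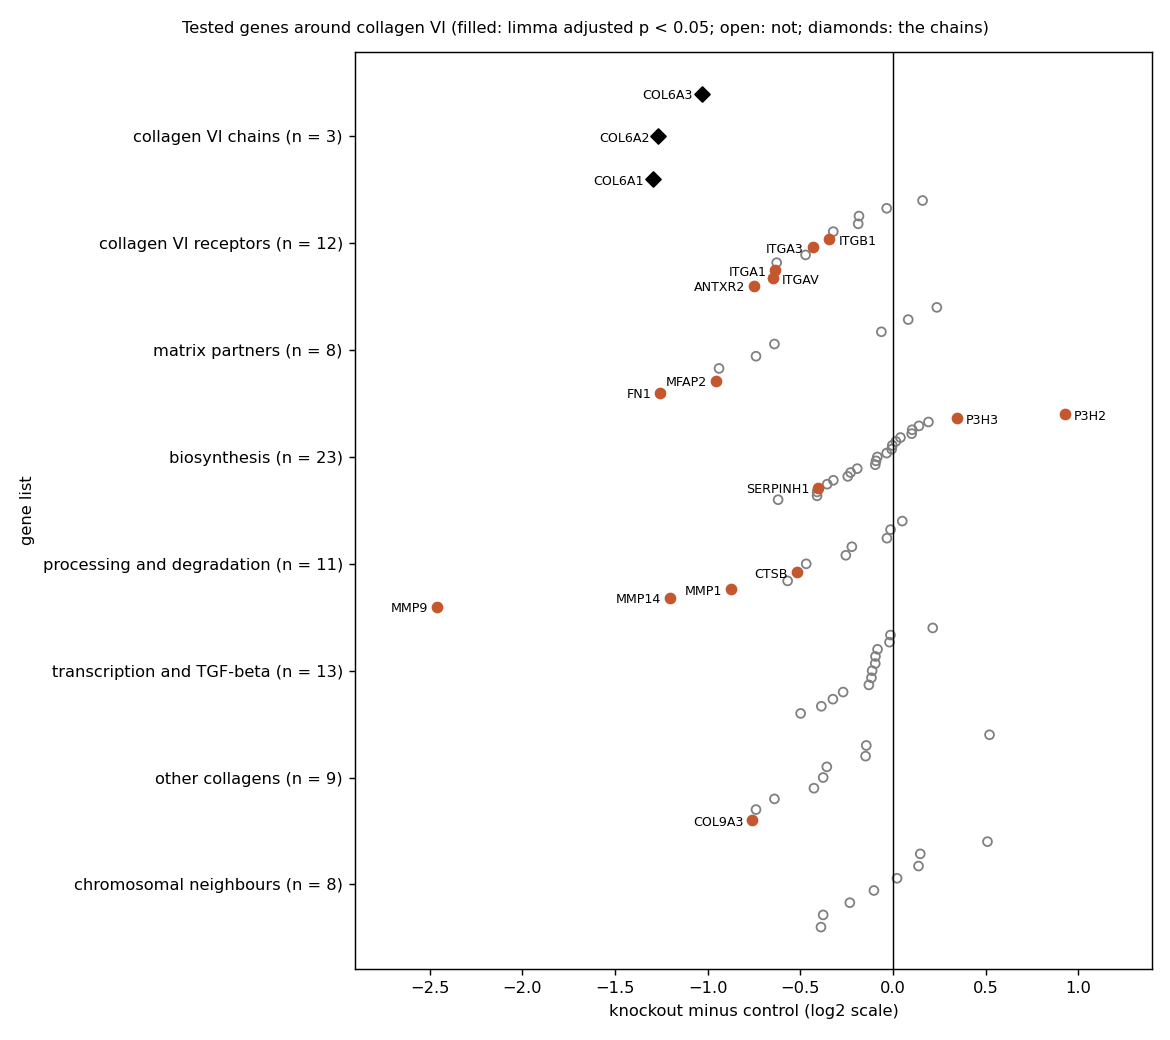
Knockout minus control difference on the log2 scale (x axis) of each tested gene in the lists around collagen VI (rows); filled points passed limma's adjusted threshold, open points did not, and diamonds are the chains. In the receptor and processing lists every filled point lies below 0, and 0 points are filled among transcription genes and chromosomal neighbours.

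The 5 nearest protein-coding genes on each side of the COL6A1 and COL6A2 pair and of COL6A3 were compared next. Of these 20 genes, 8 could be tested and limma called 0, with 3 at an unadjusted p-value under 0.05, against 29.7% of all tested genes. With the replicate block, which called 10.2% of all tested genes, 2 were called: LSS, a sterol synthesis enzyme whose gene lies 55.6 kb beyond COL6A2, at 0.51 (limma adjusted p = 0.0246), and COL18A1, 468 kb before COL6A1, at -0.38 (limma adjusted p = 0.0337). SPATC1L, 28.3 kb beyond COL6A2, had a difference of 0.02 and MLPH, 72.2 kb from COL6A3, one of 0.15. In replicates 1-2 and 3-4 apart, SPATC1L differed by 0.32 and -0.27 and MLPH by -0.16 and 0.45. The nearest gene on either side of the pair, PCBP3 before COL6A1 and FTCD beyond COL6A2, was below the level needed for the test, with a difference of 0.04 for PCBP3 and 0.14 for FTCD. The 8 tested neighbours ranged from -0.39 to 0.51, each smaller in size than the difference of any chain. Because the chains were chosen for their fall, that comparison says nothing about the neighbours. Among the neighbours that could not be tested, ASB18 and RAB17, which were blank in some libraries, had the largest differences, at 0.95 and 0.90 between the values present.

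Likeness to the chains was measured over the 8 libraries as the root mean square difference between a gene and the mean of the 3 chains, each taken relative to its own control mean. That mean profile was -1.48, -1.29, -1.06 and -0.96 in knockout libraries 1 to 4. COL6A1, COL6A2 and COL6A3 deviated from it by 0.09, 0.08 and 0.16, and the median over the other tested genes was 0.88. Each chain is part of that mean and was chosen for its fall. The small values of the chains are therefore no evidence that they vary together. The nearest other gene was CYTH4, which encodes an exchange factor for ARF GTPases, at 0.14. VEGFC, a lymphatic growth factor, followed at 0.15 and LGALS3, the galectin-3 gene, at 0.17. CYTH4 and VEGFC thus lay nearer to the chains' mean than COL6A3 did.

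NPTX1, ZNF697, ANPEP, QPCT, UCN2, CDKN1A and SERPIND1 completed the 10, at 0.18 to 0.22. ANPEP encodes the surface peptidase CD13, and its values relative to its control mean were -1.80, -1.63, -0.97 and -0.85 in knockout libraries 1 to 4, a wider split between the pairs than in the chains. CDKN1A, the gene of the cell cycle inhibitor p21, and LGALS3 were more even over the knockout libraries, with SDs of 0.10 and 0.04. The choice by likeness fixes that all of them are lower in the knockouts, so they carry no test. Without the filter on low values 7 of these 10 genes were still among the 10 nearest, and with a pseudocount of 1 also 7.

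**Figure D4:**
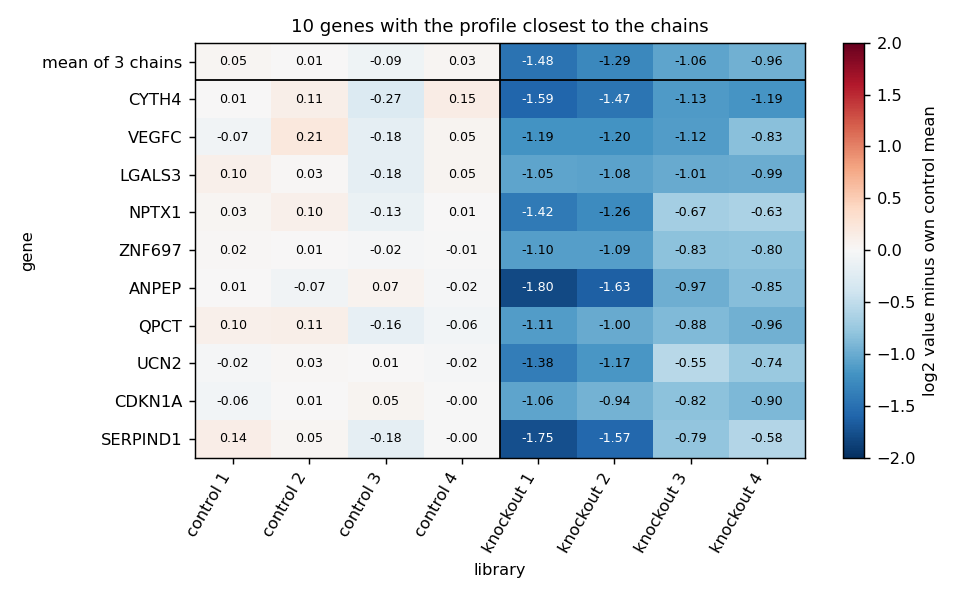
Log2 value minus the gene's own control mean (colour and number) for the mean of the 3 chains and the 10 genes with the closest profile (rows) in the 8 libraries (columns). The chains' mean ran from -1.48 to -0.96 in the knockout libraries, ANPEP and SERPIND1 spread more widely, and LGALS3 stayed near -1.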

How the data were processed

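Values were read from 1 table of 54174 gene symbols and 8 libraries. The authors deposited logarithmic values, which are read here as log2: the base is inferred from their range, and the unit before the logarithm, aligner, counter, annotation and rule for blanks are not given in the sources used here. The submitters' processing notes name bcl2fastq, Partek 7.0 and GRCh38. Every library has the same mean of 1.07 and median of 1.77, so the deposited values had been quantile normalized, which hides a shift of most genes. Blank cells were treated as missing.

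Groups and replicate numbers came from sample titles. limma 3.58.1 in R 4.3.3 was fitted, knockout minus control, to the 9016 genes measured in every library with a mean no lower than 1, with Benjamini-Hochberg adjustment and a threshold of 0.05, after a test on simulated data. The chains, lists, naming rule and alternatives were chosen with earlier results of these data known. Named genes are the chains, up to 4 rises and 4 falls called per list with groups that do not overlap, list genes differing by at least 1, the 10 closest profiles and NELL1 (23 of them, outside the chains, passed the filter and entered the alternatives); other list genes given as examples were chosen after their values were seen. Alternatives changed the filter, scaling, a pseudocount of 1, the variance model, the block, the pairs, the sets and each library in turn. Same-numbered libraries deviated together (correlation over genes 0.20 to 0.29 for the 4 pairs), as did others within replicates 1-2 or 3-4 (0.11 to 0.31); the block is given where it changes a call. Of the chains, COL6A2 and COL6A3 matched a RefSeq promoter (GRCh38.p14); COL6A1 did not.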

Additional observations from a re-analysis of the deposited data

Results flagged for a closer look

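ANTXR2 in the knockout group was set apart by 1 library. Its values were 2.98, 3.17, 3.15 and 3.15 in knockout libraries 1 to 4, and the gap between knockout library 1, the lowest, and the next value made up 0.883 of the group's range, above Dixon's critical value for 4 values. It was 1 of 58 groups examined (the chains, their ratios and the 23 named genes that passed the filter, in each group), and chance flags about 1 in 20. Without knockout library 1 the difference of ANTXR2 was -0.71 in place of -0.75 and still passed in limma. None of the 12 sets of values for the chains and their ratios was flagged, the low COL6A3 value of control library 3 included.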

How the results depend on the processing

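The chains were chosen for being lower in the knockouts, so their direction is no evidence about them. They kept it under every scaling and the pseudocount. The replicate block, averaged pairs and the set term cannot change the difference in this balanced design. Within replicates 1-2 the differences of COL6A1, COL6A2 and COL6A3 were -1.47, -1.38 and -1.39, and within replicates 3-4 they were -1.12, -1.15 and -0.67. COL6A1 minus COL6A3 changed by -0.074 and -0.45 in these sets, and COL6A2 minus COL6A3 by 0.013 and -0.48. With each library left out in turn, COL6A1 ranged from -1.37 to -1.21, COL6A2 from -1.31 to -1.21 and COL6A3 from -1.14 to -0.90; COL6A1 minus COL6A2 ranged from -0.06 to -0.0012, COL6A1 minus COL6A3 from -0.31 to -0.15 and COL6A2 minus COL6A3 from -0.31 to -0.14. Calls over all genes numbered 1183, and 391 to 1353 with a library left out (444, 431 and 391 without control library 1, 2 or 4, and 716 without knockout library 3), 729 with a mean of at least 3, 108 with averaged pairs, 2274 with a set term, 5380 in replicates 1-2 and 2987 in replicates 3-4. Calls over all lists numbered 15, with 9 to 20, 3, 31, 63 and 34 for leave-one-out, averaged pairs, the set term, replicates 1-2 and replicates 3-4. Per list, calls of receptors (5) numbered 1 with averaged pairs and 10 in replicates 1-2 (leave-one-out 3 to 5, with 3 without control library 1, 2 or 4). Matrix partners (2) gave 6 without a filter, 1 with averaged pairs, 8 and 5 in replicates 1-2 and 3-4 (leave-one-out 1 to 2). Biosynthesis (3) gave 1 with a mean of at least 3, 0 with averaged pairs, 8 with the set term, 15 and 8 in the sets (leave-one-out 2 to 6, with 6 without control library 3). Processing (4) gave 1 with averaged pairs and 9 and 7 in the sets (leave-one-out 3 to 4). Transcription (0) gave 1 without a filter, 3 with the set term and 8 and 3 in the sets (leave-one-out 0 to 1). Other collagens (1) gave 3 without a filter, 0 with averaged pairs, 3 with the set term and 9 and 4 in the sets (leave-one-out 0 to 1). Chromosomal neighbours (0) gave 1 without a filter, 1 with a mean of at least 3, 2 with the replicate block, 4 with the set term and 7 and 4 in the sets (leave-one-out 0 to 2). The 23 named genes outside the chains that passed the filter were chosen for a call or for likeness to the chains. That 0 reversed is therefore no evidence about them. With averaged pairs 13 no longer passed, and ANTXR2, MFAP2 and MMP9 were the list genes that still did. Of the 23, 2 no longer passed without a filter, 2 with the replicate block (ITGA3 and COL9A3), 2 in replicates 3-4 and 0 to 5 with a library left out. Apart from these, and P3H3 and the neighbours named above, the block changed 0 calls in the lists. Causes were not tested. With the library minimum in place of NELL1's blank, its difference was -1.16 (exact permutation test, p = 0.543). Depth is unknown, so no limit from counting can be stated.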

Other observations

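Matrix genes below the level needed for the test held further differences of at least 1 in size, given here as values. Of the 11 list genes of this kind, 8 had a value in every library, and a limma fit without the filter on low values called 4 of them, against 8.3% of 13943 genes. They were picked for their large differences, so nothing is read from that share. COL7A1, the anchoring fibril collagen, averaged -0.04 in control and -1.46 in knockout libraries (difference -1.42, limma adjusted p = 0.00336). COL5A3, a minor fibrillar chain, averaged -4.55 and -3.08 (difference 1.47, limma adjusted p = 0.0125). MATN2, an adaptor protein of the matrix with von Willebrand type A domains, averaged -1.88 and -0.46 (difference 1.42, limma adjusted p = 0.0240). TFAP2A, a transcription factor, averaged -3.93 and -2.68 (difference 1.25, limma adjusted p = 0.0383). P4HA3, TGFB2, TGFB3 and COL24A1 had differences of 1.26, 1.28, 1.17 and 1.08 and did not pass. COL1A2, COL11A1 and COL26A1 were blank in some libraries, with differences of 1.89, 1.11 and 1.04 between the values present.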
